A study of Mus musculus with 9 samples.

Results

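The collagen genes are the 44 of 19481 genes in the deposited table whose symbol is Col, a number, the letter a and a number, a rule that uses the name alone. Their RNA was measured in 9 tumors grown from KLN205, an established squamous carcinoma line of mouse lung that grows in immunocompetent DBA/2 hosts. There were 3 tumors with shControl (a scrambled hairpin), 3 with sh2 Tmprss11b and 3 with sh3 Tmprss11b, where both sh2 and sh3 target the transmembrane serine protease gene Tmprss11b. All 3 groups carried a SMART inducible shRNA vector in the injected carcinoma cells, all were implanted under the skin of wild-type female DBA/2 mice 6 to 8 weeks old, and all received doxycycline in the drinking water once the mean tumor volume had reached 100 mm3. Tumors were taken on day 50. The transduced lines were selected populations, and the fibroblasts, vessels and immune cells of the host carried no hairpin. Poly(A) RNA of a piece of whole tumor was sequenced, so that carcinoma and host cells were read together, and in such bulk tissue fewer cells of a type and less RNA per cell cannot be told apart.

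Collagens are secreted or membrane-bound proteins whose chains wind around each other in threes, and each chain is built of triplets that start with glycine. Fibrillar collagens assemble into the fibers that give tissue its strength, type IV collagen forms the sheet of basement membranes, FACIT collagens (fibril-associated collagens with interrupted triple helices) decorate the fibers, and type VI collagen forms beaded filaments between cells and fibers. In solid tumors fibroblasts are the main source of fibrillar collagen, while basement membrane chains are made by endothelial, mural and epithelial cells. The 44 genes comprised 11 fibrillar, 6 basement membrane, 9 FACIT, 6 beaded, 3 network-forming, 1 anchoring fibril, 2 multiplexin and 4 transmembrane collagens and 2 others. Of these, 38 had enough counts to be tested. The 6 that did not were Col2a1, Col4a6, Col9a1, Col9a2, Col19a1 and Col22a1.

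The glycine triplets can be read in the coding sequences themselves, shown here for a member of each of 4 classes from GENCODE transcripts of the mouse build GRCm38. Each line gives 72 bases, 5′ to 3′, and capitals mark the leading 2 bases of every glycine codon. The line of Col1a1 (chromosome 11, bases 94936224 to 94953042, plus strand) starts at codon 168, where its longest unbroken run of glycine triplets begins. The other lines run past the end of the longest run, so that the break in the pattern is visible, and start at codon 148 of Col4a1 (chromosome 8, bases 11198423 to 11312826, minus strand), codon 502 of Col6a1 (chromosome 10, bases 76708792 to 76726168, minus strand) and codon 801 of Col17a1 (chromosome 19, bases 47646344 to 47692094, minus strand).
Col1a1: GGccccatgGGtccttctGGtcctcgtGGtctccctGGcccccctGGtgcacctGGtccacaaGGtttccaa
Col4a1: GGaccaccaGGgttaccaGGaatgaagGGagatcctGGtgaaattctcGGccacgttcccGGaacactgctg
Col6a1: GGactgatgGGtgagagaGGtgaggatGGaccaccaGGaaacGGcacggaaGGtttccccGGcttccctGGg
Col17a1: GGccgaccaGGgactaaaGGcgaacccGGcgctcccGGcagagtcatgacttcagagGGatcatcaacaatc

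The run of Col1a1 held 338 triplets without a break, and the longest runs of the 11 fibrillar genes lay between 216 and 344 triplets. The longest runs of basement membrane (39 to 66), beaded (37 to 87), transmembrane (40 to 56) and FACIT genes (32 to 113) overlapped, so that run length does not tell these classes apart. The longest run of Col4a1 held 40 triplets, followed by further shorter ones, 22 runs of at least 5 triplets in all. Col6a1 had a single long run of 87 triplets among 3, which made up 32.2% of its codons against 73.3% in Col1a1 and 79.6% in Col4a1. In Col17a1, a transmembrane collagen of epithelial attachment sites, the longest run held 56 triplets.

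Total counts per tumor ranged from 20653219 to 24047784, at which 3 counts correspond to 0.123 to 0.152 CPM (counts scaled to a common library size with TMM factors). Tmprss11b, listed under its RefSeq synonym Tmprss11bnl, had 18, 51 and 42 counts in the shControl tumors, 7, 2 and 5 in the sh2 tumors and 10, 4 and 5 in the sh3 tumors. Some tumors stood apart in tissue markers. The summed level of 7 keratinocyte markers was 235 CPM in shControl replicate 1 and between 4.72 and 13.9 CPM in the other 8 tumors. The summed level of 6 skeletal muscle markers was 2727 CPM in shControl replicate 3, 902 CPM in sh3 replicate 1 and 307 CPM in shControl replicate 1, against 1.46 to 129 CPM in the others. Carcinoma markers such as Epcam, Krt8, Krt18 and Sox2 were present in every tumor (summed level 3182 to 7293 CPM over 8 genes). Of the same list, Krt14 ranged from 12.3 CPM in sh3 replicate 1 to 389.7 CPM in shControl replicate 1. Trp63 ranged from 0.37 to 6.94 CPM in the same 2 tumors. shControl replicate 1 was also the tumor with the highest level for 17 of the 38 collagen genes tested, and sh3 replicate 3 had the lowest level for 20, so that results resting on shControl replicate 1 are also given without it.

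Collagen transcripts took a smaller share of the library in the sh3 tumors than in any other tumor. They made up 1.08%, 0.749% and 0.761% of all counts in the shControl tumors, 0.685%, 0.542% and 0.795% in the sh2 tumors and 0.446%, 0.469% and 0.372% in the sh3 tumors. In CPM the sum over the 44 genes was 8327 ± 1727 in shControl, 6731 ± 1109 in sh2 and 4445 ± 561 in sh3 tumors (SD, n = 3 each). The sh3 mean was thus 53.4% of the control mean and the sh2 mean 80.8%, and without shControl replicate 1 these shares were 60.6% and 91.8%. The sh3 tumors did not overlap with the control or the sh2 tumors, whereas sh2 replicate 3 lay above 2 of the 3 controls. Leaving out Col1a1, Col1a2 and Col3a1, the most abundant members, gave 62.8% in sh3 and 83.9% in sh2. On the deposited TPM scale, which also divides by gene length, the sh3 sum was 45.5% of the control, where the median of all 14725 genes tested was itself lower by 0.18 on the log2 scale.

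**Figure D1:**
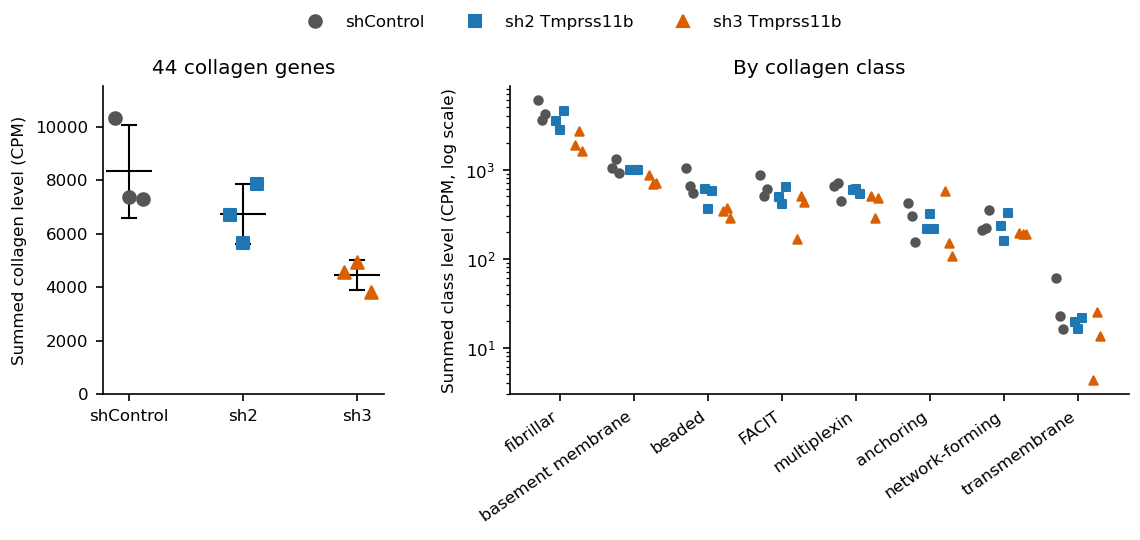
Summed level of the collagen genes in CPM for each tumor, over all 44 genes on a linear axis (left, points are tumors, horizontal bars means, whiskers SD, n = 3) and by class on a log axis (right, the 2 genes of the class "other" not drawn). The sh3 tumors, between 3827 and 4924 CPM, sit below all shControl and sh2 tumors in the total, and below all of them in the fibrillar and basement membrane sums.

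In the test across genes none of the 38 collagen genes passed an FDR of 0.05 in any comparison by edgeR's quasi-likelihood test, nor did any of the 14725 genes tested. The lowest adjusted p among the collagens was 0.999 for sh2 against control, 0.753 for sh3 against control, 0.982 for the mean of both hairpins against control and 0.673 for sh3 against sh2. At an unadjusted p under 0.05, 518, 976, 602 and 1057 of all genes were counted in these comparisons. With other tests of the same counts, sh3 against control gave 5 collagen genes at this FDR by DESeq2 (Col1a1, Col1a2, Col5a1, Col6a1 and Col6a2, of 41 genes in all) and 2 by edgeR's likelihood ratio test (Col1a2 and Col6a1, of 8 genes in all). The members are therefore described by their values, their counts at an unadjusted p under 0.05 and whether the groups overlapped, each beside the same count over all genes.

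For sh3 against control, 33 of 38 collagen genes had a lower fitted level and 5 a higher one, where 45.1% of all genes tested were lower and 54.9% higher. Their median log2 fold change was -0.81, against 0.03 over all genes, and -0.65 without shControl replicate 1. An unadjusted p under 0.05 with a lower level was reached by 17 of the 38 (44.7%), against 3.13% of all genes, and by none with a higher level, against 3.5%. Without shControl replicate 1 it was 13, and over all the alternative settings and left-out tumors 12 to 19. In 18 of the 38 every sh3 tumor lay below every control tumor, against 5.44% of all genes, and in 1, Col6a4, every sh3 tumor lay above, against 6.78% of all genes.

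For sh2 against control 29 of 38 collagen genes were lower and 9 higher, where 48.2% of all genes were lower and 51.8% higher. The median log2 fold change was -0.29, and it came to -0.08 without shControl replicate 1. Only Col17a1 had an unadjusted p under 0.05, 2.63% of the members against 1.87% of all genes in that direction, and no member was higher at that p, against 1.64% of all genes. Every sh2 tumor lay below every control in 2 members, Col27a1 and Col6a5, which is 5.26% against 5.83% of all genes, and above every control in none, against 5.56%. Both hairpins were compared with the same 3 control tumors.

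The direct comparison of sh3 with sh2, which shares no control tumor, had a median log2 fold change of -0.46, with 32 of 38 members lower (45.1% of all genes) and 6 higher (54.9%). Here 7 members (18.4%) were lower at an unadjusted p under 0.05, against 3.66% of all genes: Col1a1, Col1a2, Col11a1, Col6a1, Col6a2, Col10a1 and Col26a1. That count was 3 without sh2 replicate 3, 4 without sh3 replicate 3, and 12 without sh2 replicate 2 or without sh3 replicate 1. No member was higher at that p, against 3.52% of all genes. In 9 members every sh3 tumor lay below every sh2 tumor, against 4.62% of all genes, and in none above, against 5.51%. For the mean of both hairpins against control, 33 members were lower (45% of all genes) and 5 higher (55%). Of these, 13 were lower at an unadjusted p under 0.05 (34.2%, against 2.74% of all genes), and 7 without shControl replicate 1, while none was higher at that p, against 1.35% of all genes. In that comparison the 6 hairpin tumors all lay below the 3 controls for 1 member, Col6a5, against 0.958% of all genes, and above them for none, against 1.21%.

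**Figure D2:**
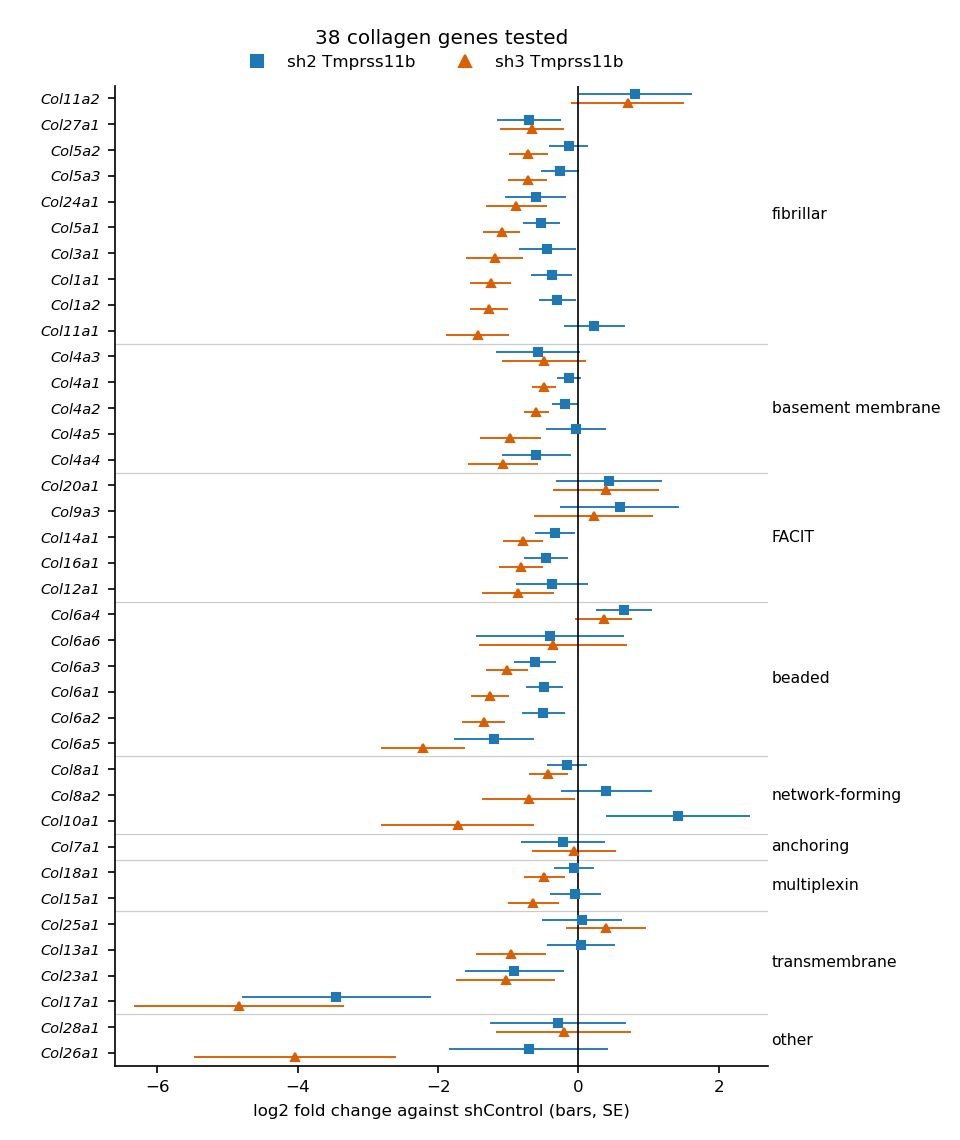
Log2 fold change of the 38 tested collagen genes against shControl for sh2 (squares) and sh3 (triangles), with bars of 1 SE of the edgeR fit, ordered by class. In most rows the sh3 point lies left of the sh2 point and both lie left of 0, with medians of -0.81 and -0.29.

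Fibrillar collagens were the class with the most RNA per length, 46.3% to 63.2% of the summed TPM per tumor. Of the 10 tested, 9 were lower in sh3 tumors (median log2 fold change -0.99), 7 with an unadjusted p under 0.05, and 6 lay wholly below the controls, where the shares of all genes were 45.1%, 3.13% and 5.44%. In sh2 tumors 8 were lower (48.2% of all genes), with a median of -0.34 and none at that p (1.87%). Col1a1, Col1a2 and Col3a1 ranked highest of all collagens by mean TPM over the 9 tumors, at 462, 439 and 363.

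Col1a1 encodes the major chain of type I collagen, the chief protein of connective tissue fibers. Its levels were 1870.0, 991 and 1036 CPM in shControl, 913, 821 and 1257 CPM in sh2 and 449.7, 673 and 512 CPM in sh3 tumors, which in raw counts ran from 9727 in sh3 replicate 1 to 43908 in shControl replicate 1. All sh3 tumors lay below all others, and the sh2 range held the 2 lower controls. The log2 fold change was -1.25 (SE 0.29, unadjusted p = 0.00199) for sh3, -0.38 (SE 0.29) for sh2 and -0.87 (SE 0.29) for sh3 against sh2. Without shControl replicate 1 the sh3 value was -0.91 and the sh2 value -0.02.

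Col1a2, the partner chain of type I collagen, had 1705, 1086 and 1181 CPM in shControl, 1017, 846 and 1366 CPM in sh2 and 508, 708 and 427 CPM in sh3 tumors. Again the 3 sh3 tumors were the lowest of the 9. The log2 fold change of -1.27 (SE 0.27) for sh3 against control had the smallest unadjusted p of the collagens, 0.00107, with an adjusted p of 0.753 by edgeR's quasi-likelihood test, and that for sh2 was -0.30 (SE 0.27), or -0.07 without shControl replicate 1.

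Col3a1, whose type III collagen forms the fine fibers of vessels and young stroma, had 1525, 808 and 1302 CPM in shControl, 903, 608 and 1163 CPM in sh2 and 617, 719 and 253 CPM in sh3 tumors. Here sh3 replicate 3 stood well below the other sh3 tumors, and the sh3 and sh2 ranges overlapped. The log2 fold change for sh3 was -1.19 (SE 0.41).

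Type V collagen lies inside type I fibers and governs their thickness. Col5a1 had 256, 167 and 156 CPM in shControl, 131, 96.9 and 174 CPM in sh2 and 72.2, 106 and 92.9 CPM in sh3 tumors. The sh3 tumors were clear of the controls, and the log2 fold change was -1.10 (SE 0.27) for sh3 and -0.53 (SE 0.27) for sh2, the latter -0.27 without shControl replicate 1. Col5a2 was at 515, 440 and 482 CPM in shControl, 454, 345 and 504 CPM in sh2 and 181, 409.7 and 285 CPM in sh3 tumors, with a log2 fold change of -0.72 (SE 0.28). Col5a3 was at 101, 83.9 and 56.4 CPM in shControl, 82.7, 47.5 and 71.0 CPM in sh2 and 50.8, 57.4 and 37.6 CPM in sh3 tumors. The highest sh3 tumor lay above the lowest control, and the log2 fold change was -0.73 (SE 0.27).

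Col11a1, a minor fibrillar chain known from cartilage and from activated tumor fibroblasts, was much less abundant. It was at 8.82, 10.1 and 10.4 CPM in shControl, 7.12, 7.92 and 19.3 CPM in sh2 and 2.68, 5.54 and 2.61 CPM in sh3 tumors. The controls were close together, and the sh3 tumors lay below both other groups. The log2 fold change was -1.44 (SE 0.44) for sh3 against control and -1.67 (SE 0.45) against sh2. Of the remaining fibrillar genes, Col27a1 and Col24a1 had log2 fold changes between -0.88 and -0.61 with both hairpins, and Col11a2 was the one with positive values (0.70 in sh3 and 0.81 in sh2, SE 0.81 each). Col11a2 was highest in sh3 replicate 1 and sh2 replicate 2, at 10.9 and 10.2 CPM, against 1.71 to 3.85 CPM in the other 7 tumors.

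**Figure D3:**
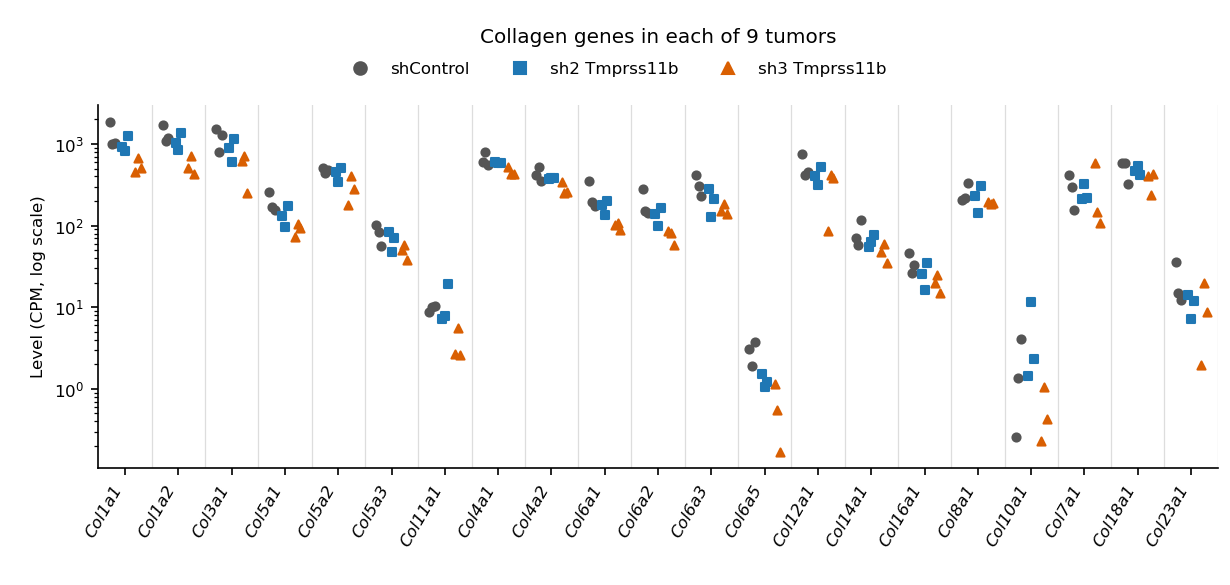
Level in CPM on a log axis of 21 collagen genes in each of the 9 tumors, grouped as fibrillar, basement membrane, beaded, FACIT and other classes from left to right (circles shControl, squares sh2, triangles sh3). For Col1a1, Col1a2 and Col6a1 the 3 sh3 tumors sit below the other 6, while for Col7a1 the highest of all tumors, 579 CPM, is an sh3 tumor.

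The basement membrane sum was 1101 ± 210.5 CPM in shControl, 987 ± 2.51 CPM in sh2 and 758 ± 105 CPM in sh3 tumors (SD, n = 3 each). Col4a1 and Col4a2 encode the chains of the type IV collagen found in nearly all basement membranes, and the pair starts head to head on chromosome 8, at bases 11312826 (minus strand) and 11312805 (plus strand) of the mouse build. Col4a1 was at 599, 792 and 556 CPM in shControl, 599, 588 and 585 CPM in sh2 and 528, 434 and 425 CPM in sh3 tumors. Col4a2 was at 423, 526 and 351 CPM in shControl, 371, 388 and 378 CPM in sh2 and 346, 253 and 259.5 CPM in sh3 tumors. For both genes all sh3 tumors were below all others, and the sh2 tumors lay within the control range. The log2 fold changes for sh3 were -0.49 (SE 0.17) and -0.60 (SE 0.18), and for sh2 they were -0.14 (SE 0.17) and -0.19 (SE 0.18).

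All 5 tested genes of this class were lower in sh3 (median log2 fold change -0.60), 2 of them, Col4a1 and Col4a2, at an unadjusted p under 0.05 (45.1% and 3.13% of all genes). Col4a5, a chain of specialised basement membranes, was at 17.4, 15.7 and 18.8 CPM in shControl and at 4.76, 7.98 and 13.7 CPM in sh3 tumors, without overlap (log2 fold change -0.97, SE 0.43). In sh2 tumors it was at 16.8, 8.84 and 25.0 CPM, with a log2 fold change of -0.035 (SE 0.43). Its chain partners Col4a3 and Col4a4 stayed at or below 1.24 CPM in every tumor. The share of the class in the summed collagen TPM ran from 8.87% in shControl replicate 1 to 17.6% in sh3 replicate 1, with means of 12.1% in shControl, 13.3% in sh2 and 15.8% in sh3 tumors.

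Type VI collagen forms the beaded filaments, and its usual trimer holds 1 chain each of Col6a1, Col6a2 and Col6a3. Col6a1 was at 349, 195 and 173 CPM in shControl, 180.4, 134 and 198 CPM in sh2 and 102, 109 and 89.1 CPM in sh3 tumors. Col6a2 was at 283, 151 and 141 CPM in shControl, 140.2, 99.1 and 167 CPM in sh2 and 86.2, 80.9 and 58.0 CPM in sh3 tumors. For both, all sh3 tumors lay below all other tumors, and shControl replicate 1 was the highest of the 9. The log2 fold changes were -1.26 (SE 0.27) and -1.35 (SE 0.31) for sh3, with unadjusted p of 0.00116 and 0.00168, and -0.49 (SE 0.27) and -0.50 (SE 0.30) for sh2. Without shControl replicate 1 both sh2 values were -0.11, and the sh3 value of Col6a1 was -0.90.

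Col6a3, the longest of these chains, was at 419, 302 and 233 CPM in shControl, 282, 128 and 209.5 CPM in sh2 and 152, 183 and 137 CPM in sh3 tumors. The sh3 tumors were below the controls but not below sh2 replicate 2. Col6a5, a chain that can replace Col6a3 in the trimer, was rare, with 73, 46 and 92 counts in shControl, 36, 22 and 29 in sh2 and 25, 11 and 4 in sh3 tumors. In CPM the controls were at 1.90 to 3.77 and the 6 hairpin tumors at 0.17 to 1.52, without overlap, and the log2 fold change was -2.21 (SE 0.60) for sh3 and -1.21 (SE 0.57) for sh2. Col6a4 and Col6a6 stayed at or below 2.17 CPM. Over the 6 beaded genes the median was -1.14 for sh3, with 4 lower at an unadjusted p under 0.05 (3.13% of all genes), and -0.49 for sh2 with none (1.87%).

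FACIT genes were led by Col12a1, at 748, 422 and 453 CPM in shControl, 411, 315 and 522 CPM in sh2 and 84.8, 423 and 383 CPM in sh3 tumors. A single tumor, sh3 replicate 1, was low, and the other 2 sh3 tumors were close to the lower controls, so that the log2 fold change of -0.87 had an SE of 0.51. Col14a1, at 70.8, 58.0 and 117 CPM in shControl, 55.1, 63.7 and 76.0 CPM in sh2 and 48.0, 58.7 and 35.2 CPM in sh3 tumors, gave -0.79 (SE 0.28) for sh3. Col16a1, at 45.7, 26.4 and 33.0 CPM in shControl, 25.3, 16.2 and 34.9 CPM in sh2 and 19.7, 24.8 and 14.9 CPM in sh3 tumors, gave -0.82 (SE 0.32) for sh3. Col16a1 alone of these 3 had no overlap between sh3 and control tumors. Col9a3, a chain of cartilage collagen IX, and Col20a1 had positive fold changes of 0.22 and 0.40 in sh3 with SEs of 0.85 and 0.75, at levels of 0.30 to 11.4 CPM.

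Col22a1, a FACIT of tissue junctions such as that of muscle and tendon, had 1, 1 and 37 counts in shControl, 0 in every sh2 and 3, 0 and 1 counts in sh3 tumors. The 37 counts were in shControl replicate 3, the tumor with the highest skeletal muscle marker sum. The gene did not have enough counts for the test.

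Among the remaining classes Col7a1, the collagen of the fibrils that anchor epidermis to dermis, showed no common direction. It was at 417, 300.3 and 154 CPM in shControl, 214, 320 and 215 CPM in sh2 and 579, 148 and 108 CPM in sh3 tumors, so that the widest spread was within the sh3 group, and the log2 fold change of -0.06 (SE 0.60) took either sign as tumors were left out. Col8a1, a short-chain collagen of vessel walls, was at 209, 217 and 337 CPM in shControl, 229.8, 141 and 309 CPM in sh2 and 192, 184 and 189.6 CPM in sh3 tumors (log2 fold change -0.43, SE 0.28). Col18a1, the basement membrane collagen from which endostatin is released, was the fifth most abundant per length (mean 175 TPM) and had 589, 589 and 319 CPM in shControl, 472, 542 and 419.8 CPM in sh2 and 404, 234 and 431 CPM in sh3 tumors. The groups overlapped, with -0.49 (SE 0.29) for sh3. Col23a1, a transmembrane collagen, had 35.7, 14.9 and 12.4 CPM in shControl, 14.2, 7.10 and 12.1 CPM in sh2 and 1.99, 19.8 and 8.86 CPM in sh3 tumors. It was highest in shControl replicate 1, the groups overlapped, and the value for sh3 was -1.04 (SE 0.71), or -0.44 without that tumor. Col10a1, known from growth-plate cartilage, had 0.26, 1.37 and 4.05 CPM in shControl, 1.43, 11.5 and 2.34 CPM in sh2 and 0.23, 1.07 and 0.43 CPM in sh3 tumors. It was the member with the highest positive value for sh2, 1.42 (SE 1.03), which came to 0.00 without sh2 replicate 2.

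Col17a1 and Col26a1 had the most negative fold changes of the members in sh3 against control. Col17a1 anchors basal keratinocytes to the basement membrane. It had 339, 9 and 6 counts in shControl, 12, 10 and 9 counts in sh2 and 5, 3 and 3 counts in sh3 tumors. shControl replicate 1, 28.6-fold above the next in CPM, was the tumor with the high keratinocyte marker sum. The log2 fold changes of -3.45 for sh2 and -4.84 for sh3 came to 0.55 and -0.85 without it. Col26a1 had 80, 8 and 9 counts in shControl, 12, 2 and 45 counts in sh2 and 3, 2 and 0 counts in sh3 tumors, and its value of -4.04 for sh3 came to -2.10 without that control.

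Some pairs of chains of 1 collagen type kept close proportions over the 9 tumors, while others varied more. The TPM ratio of Col1a2 to Col1a1 lay between 0.762 and 1.04, a 1.37-fold range, while Col1a1 and Col1a2 themselves ranged over 4.13-fold and 4.43-fold. For Col4a2 to Col4a1 the ratio lay between 0.6004 and 0.7269, with ranges of 2.32-fold and 2.64-fold for the genes, and for Col6a2 to Col6a1 between 0.694 and 0.905, with ranges of 4.36-fold and 5.41-fold. The ratio of Col6a3 to Col6a1 varied more, from 0.351 to 0.616, as did that of Col5a2 to Col5a1, from 2.55 to 4.91. Col3a1, which forms a trimer of its own, was at 0.417 to 1.16 of Col1a1, a 2.78-fold range. None of the 18 comparisons of a ratio with the controls (6 ratios, 3 comparisons each) differed by an exact two-sided permutation test, with a lowest adjusted p of 0.90. With 3 tumors against 3 this test cannot go below 0.1, and with 6 against 3 not below 0.0119.

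**Figure D4:**
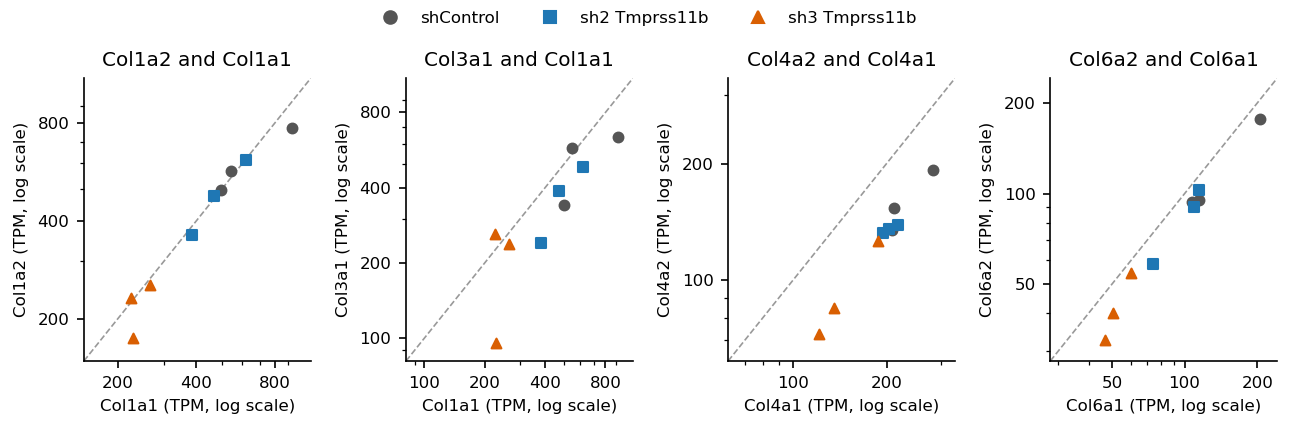
TPM of pairs of collagen genes in the 9 tumors on log axes, Col1a2 and Col3a1 against Col1a1, Col4a2 against Col4a1 and Col6a2 against Col6a1 (circles shControl, squares sh2, triangles sh3, dashed line equal levels). Points of the drawn pairs from 1 trimer run along a line, and those of Col3a1 scatter over a 2.78-fold range of the ratio. The pairs Col5a2 and Col5a1 and Col6a3 and Col6a1, with ratio ranges of 1.92-fold and 1.75-fold, are not drawn.

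No motif of 3 searched was in all promoters of these genes. For 31 of the 38 tested genes RefSeq start sites gave 33 windows of the 250 bases before the start (GRCm38.p6), searched on both strands for the TATA box as TATAAA, for the CAAT box as CCAAT and for the GC box as GGGCGG, where the last pair can share bases. TATAAA was in 15.2% of the collagen windows and 12.4% of all 32851 windows, CCAAT in 36.4% and 33.9%, and GGGCGG in 60.6% and 32.7%. The windows of 3 members whose sh3 tumors all lay below the controls are shown as examples, with motifs in capitals and none of them with CCAAT. That of Col3a1 (chr1:45311288-45311537, plus strand) has TATAAA 117 bases before the start, that of Col5a1 (chr2:27886175-27886424, plus strand) has GC boxes 205 and 73 bases before it, and that of Col6a3 (chr1:90843972-90844221, minus strand) has none of the 3.
Col3a1: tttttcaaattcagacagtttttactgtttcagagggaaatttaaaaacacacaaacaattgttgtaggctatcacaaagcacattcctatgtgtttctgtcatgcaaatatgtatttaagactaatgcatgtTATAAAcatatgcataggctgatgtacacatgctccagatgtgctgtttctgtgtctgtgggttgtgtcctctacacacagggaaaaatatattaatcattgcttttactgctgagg
Col5a1: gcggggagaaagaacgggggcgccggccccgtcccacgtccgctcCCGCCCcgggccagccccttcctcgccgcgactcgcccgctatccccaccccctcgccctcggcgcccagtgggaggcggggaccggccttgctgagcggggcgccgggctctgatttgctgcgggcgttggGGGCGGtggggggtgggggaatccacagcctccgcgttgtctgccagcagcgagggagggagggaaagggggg
Col6a3: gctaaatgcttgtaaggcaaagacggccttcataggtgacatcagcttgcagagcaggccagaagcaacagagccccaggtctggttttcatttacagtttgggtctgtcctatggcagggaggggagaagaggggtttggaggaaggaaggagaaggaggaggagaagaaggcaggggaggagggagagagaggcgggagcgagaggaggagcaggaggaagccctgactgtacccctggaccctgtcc

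A list of 55 genes for the making, handling and sensing of collagen (54 in the table, 51 tested) was read from the same fit. None passed an FDR of 0.05 in any comparison. For sh3 against control 42 of 51 were lower, with a median log2 fold change of -0.41 (0.03 over all genes), where 45.1% of all genes were lower, and 13 were lower at an unadjusted p under 0.05, against 3.13% of all genes. For sh2 against control 35 were lower (48.2% of all genes), with a median of -0.16, and 1, P3h2, was lower at that p, against 1.87% of all genes. For the mean of both hairpins against control 6 were lower at that p (2.74% of all genes), and for sh3 against sh2 8 were (3.66%). None was higher at that p in either of these (1.35% and 3.52% of all genes).

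Of the 6 tested genes for propeptide removal, 4 were among the 13 lower in sh3 at that p (Tll1, Pcolce, Adamts2 and Adamts14), against 3.13% of all genes. So were 3 of the 5 lysyl oxidases (Lox, Loxl2 and Loxl3), which crosslink fibers. The others were the glycosyltransferases Colgalt1 and Colgalt2, the chaperone Fkbp10, the fibril-binding proteoglycans Lum and Bgn, and Mrc2, an endocytic receptor for collagen. Loxl3 was at 59.8, 58.4 and 60.4 CPM in shControl, 51.1, 40.4 and 57.1 CPM in sh2 and 31.8, 40.9 and 30.4 CPM in sh3 tumors. Its 6 hairpin tumors all lay below the 3 controls, as did those of Tll1, Adamts2 and Adamts14, against 0.958% of all genes. The log2 fold change of Loxl3 was -0.79 for sh3 and -0.27 for sh2. Mrc2 was at 61.8, 54.5 and 61.5 CPM in shControl, 49.2, 45.3 and 59.2 CPM in sh2 and 32.0, 39.5 and 23.6 CPM in sh3 tumors (log2 fold change -0.90 for sh3).

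At an unadjusted p under 0.05, 2 of the 13 genes for modification of the chains and 1 of the 8 for folding and export were lower in sh3, against 3.13% of all genes. The same held for 2 of the 4 proteoglycans, 1 of the 9 receptors and none of the 6 collagenases. P4ha1, a prolyl hydroxylase subunit, gave 0.04 and 0.11 on the log2 scale for sh3 and sh2, and Plod2, a lysyl hydroxylase, 0.35 and 0.13. Serpinh1, the collagen chaperone HSP47, was at 316, 208 and 250.3 CPM in shControl and 149.9, 287 and 167 CPM in sh3 tumors, which overlapped (log2 fold change -0.36). The collagen-binding kinases Ddr1 and Ddr2 gave -0.17 and -0.43 for sh3. Mmp13, a collagenase, ranged from 149 CPM in sh3 replicate 1 to 1500 CPM in sh3 replicate 2, and Mmp14 from 106 to 340.1 CPM, with log2 fold changes of -0.12 and -0.54 for sh3 and no separation of the groups.

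No marker of a cell type passed an FDR of 0.05 in any comparison by edgeR's quasi-likelihood test. All 8 fibroblast markers were lower in sh3 than in control tumors (45.1% of all genes), with a median log2 fold change of -0.62, and 2 of them, Pdgfrb and Postn, had an unadjusted p under 0.05 (3.13% of all genes). In sh2 tumors 7 of the 8 were lower (48.2% of all genes), with a median of -0.49, and 1, Dpt, had such a p (1.87%). In sh3 against sh2, where the collagen median was -0.46, 3 of the 8 were lower and 5 higher (45.1% and 54.9% of all genes), with a median of 0.08. The 3 lower ones were Postn (-0.77), Fap (-0.635) and Pdgfrb (-0.51), and the 5 higher ones lay between 0.05 and 0.325. The summed level of the fibroblast markers was 786 to 1184 CPM in shControl, 641 to 988 CPM in sh2 and 430.1 to 791 CPM in sh3 tumors, so that sh3 overlapped both other groups. For 7 endothelial markers the sums were 237 to 286, 227 to 254 and 165 to 261 CPM, and for 6 pericyte and smooth muscle markers 275 to 462, 258 to 329 and 193 to 252 CPM. The latter list holds Des, also expressed in skeletal muscle, at 194 CPM in shControl replicate 3 and 97.6 CPM in sh3 replicate 1, the tumors highest in muscle markers. All 7 endothelial and all 6 pericyte and smooth muscle markers were lower in sh3 (45.1% of all genes), with median log2 fold changes of -0.405 and -0.585. At an unadjusted p under 0.05, 2 of the 7 (Cdh5 and Tek) and 2 of the 6 (Myh11 and Notch3) were lower in sh3, against 3.13% of all genes. The 5 adipocyte markers summed to 22.2 to 48.6 CPM in shControl, 0.42 to 40.3 CPM in sh2 and 0.26 to 4.81 CPM in sh3 tumors. All 4 tested were lower in sh3 at an unadjusted p under 0.05, against 3.13% of all genes. The 4 macrophage markers in the table summed to 651 to 677 CPM in shControl and 318 to 873 CPM in sh3 tumors. Of 7 chondrocyte and bone markers Acan, Matn3, Ibsp, Bglap and Sp7 stayed under 1 CPM in all 9 tumors, while Sox9 made up most of that list's 54.9 to 119 CPM. Comp was at 4.83 CPM in shControl replicate 3 and at most 0.60 CPM in the other tumors. Its log2 fold change was -3.16 (SE 1.00) for sh2 and -2.11 (SE 0.93) for sh3. Over all the lists, 45 of the 50 markers tested were lower in sh3 and 5 higher (45.1% and 54.9% of all genes). Their median log2 fold change was -0.62. The 45 include the 4 keratinocyte and 6 skeletal muscle markers tested, whose sums were highest in a single control tumor each (235 and 2727 CPM). Median log2 fold changes for sh3 were -0.03 over the 8 carcinoma markers and -0.10 over the 4 macrophage markers. Lower levels in sh3 were thus also seen in the endothelial, pericyte and smooth muscle and adipocyte lists, but not to a like degree in every list. The part of these cell types in the collagen levels was not tested.

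**Figure D5:**
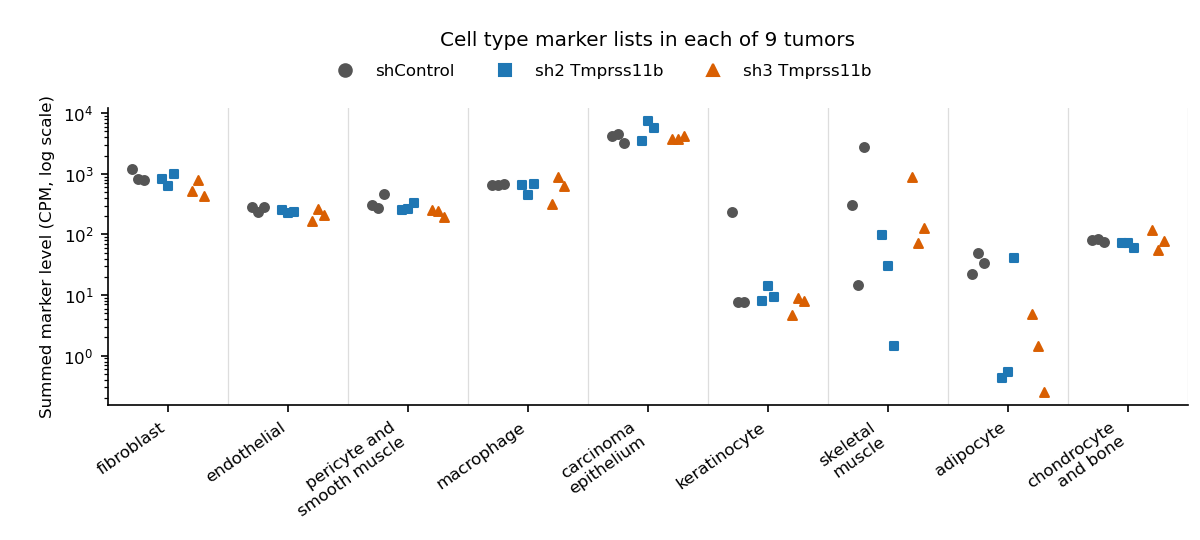
Summed CPM of 9 lists of cell type markers in each tumor on a log axis (circles shControl, squares sh2, triangles sh3). The fibroblast sum reaches from 430.1 to 1184 CPM with overlapping groups, the keratinocyte sum is 235 CPM in 1 control tumor and at most 13.9 CPM elsewhere, and the skeletal muscle sum spans 1.46 to 2727 CPM.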

How the data were processed

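Whole tumors were profiled by stranded poly(A) RNA-seq. Per the labels and methods, the authors used FastQC, STAR 2.5.3a, featureCounts and edgeR with build mm10, and deposited raw counts per gene, CPM signal scaled by TMM, and TPM, which divides counts by gene length. Strand and multi-mapping settings of the counting are not given in the sources used here, so genes that share reads cannot be separated. The 10 deposited columns of the authors' own comparisons (fold changes, likelihood ratios, p-values and FDR) were not used.

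The deposited counts of all 9 tumors were fitted together with edgeR 4.0.16 (R 4.3.3), with filterByExpr by group, TMM scaling and the robust quasi-likelihood test, for 4 comparisons, with Benjamini-Hochberg adjustment over 14725 genes. CPM in the text was recomputed from the counts with these factors. The procedure was first tested on simulated data. DESeq2 1.42.0 and edgeR's likelihood ratio test were alternatives, as were other scalings and filters, fitting only the groups compared, a replicate block and leaving out each tumor. Ratios of chains were compared by exact permutation tests on log2 TPM. The tables and plots were made with Python 3.11.15.

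Total counts of 20653219 to 24047784 per tumor set the precision. Labels call the tumors biological replicates, and no pair within a group agreed within sampling noise. The rule for members reads only the symbol, but the collagens as a subject and the lists were chosen with earlier results of these data known. Per-tumor values are given for the highest member per class and the main chains of types I, III, IV and VI, members with an unadjusted p under 0.05 in any comparison, members with both hairpin groups clear of the controls, and members with at least 20 counts and 5 times the next CPM in a tumor (24 genes). Others, such as Col11a2, Col4a5, Col9a3 and Col20a1, were named after their values were seen. Col4a3bp, which is no collagen, was not matched.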

Additional observations from a re-analysis of the deposited data

How the results depend on the processing

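No collagen gene passed an FDR of 0.05 in any comparison under the scaling, filter, replicate block or left-out tumor alternatives, all with edgeR's quasi-likelihood test. The test itself changed this for sh3 against control. There DESeq2's Wald test gave 5 collagen genes and edgeR's likelihood ratio test 2, with 41 and 8 genes in all. The Wald test gave 2 genes in all for sh2 against control, 9 for the mean of both hairpins and 46 for sh3 against sh2, and the likelihood ratio test gave 8 and 14 for the last 2. Of the synthesis and receptor list the Wald test gave 2 genes for sh3 against control and 1 for sh3 against sh2. The cause was not tested.

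Of the 66 results on single genes, 11 changed sign when a tumor was left out. For sh2 against control the log2 fold changes without 1 tumor ranged from 0.00 to 2.63 for Col10a1, from -0.37 to 0.47 for Col11a1, from -0.53 to 0.01 for Col14a1, from -4.00 to 0.55 for Col17a1, from -0.30 to 0.08 for Col18a1, from -2.12 to 1.23 for Col26a1, from -0.23 to 0.04 for Col4a1, from -0.25 to 0.01 for Col5a2, from -0.52 to 0.13 for Col7a1 and from -0.44 to 0.09 for Col8a1. For sh3 against control Col7a1 ranged from -1.18 to 0.31. The median over the collagen genes without 1 tumor ranged from -1.04 to -0.65 for sh3 and from -0.50 to -0.08 for sh2.

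Counts of collagen genes lower at an unadjusted p under 0.05 under the alternatives were added after seeing the data. They were 0 to 4 for sh2, 12 to 19 for sh3, 7 to 17 for the mean of both hairpins and 3 to 13 for sh3 against sh2. Same-numbered tumors of different groups did not deviate together (mean correlation -0.10, against 0.05 for tumors of different number), so the replicate block was only an alternative, with 17 such genes for sh3 and 8 for the mean of both hairpins. With 3 tumors per group and a 3-count floor of 0.123 to 0.152 CPM, fold changes of members near 1 CPM are imprecise.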
